A study of Homo sapiens with 8 samples.

Results

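The condensin genes are the 8 genes that encode the subunits of the 2 human condensin complexes. They are SMC2 and SMC4, which both complexes use, NCAPD2, NCAPG and NCAPH of condensin I, and NCAPD3, NCAPG2 and NCAPH2 of condensin II. They were chosen by name, as subunits of these complexes, and found on the arrays through the RefSeq transcript that each probe names. They are 8 of 22439 named genes, measured by 13 of 58201 probes. SMC2, SMC4 and NCAPD2 had 2 probes each, NCAPH2 had 3 probes, and the others had 1 probe each.

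The data came from 8 oligonucleotide arrays, each hybridized with the RNA of treated cells in Cy5 (red) and control RNA of the same cell line in Cy3 (green). In the first group, EBC-1 and SK-MES-1, both lung squamous cell carcinoma lines, were transfected with miR-150-3p, with 1 array per line. In the second group, SBC-3, a small cell lung cancer line, received the siRNAs siDONSON-1, siDONSON-2 or siDONSON-3 against DONSON, a replication fork protein, with 1 array per siRNA. In the third group, A549, a lung adenocarcinoma line, carried LOXL2, a lysyl oxidase, edited with CRISPR/Cas9, on the arrays GE1, GE2 and GE3. The labels call the controls of both transfections mock and also untransfected, and the A549 control unedited, while the agent named for transfections is Lipofectamine RNAiMAX. Treatment and cell line cannot be told apart between the groups. Nothing in the labels says whether GE1, GE2 and GE3 are separate clones or whether the arrays of a group share a control RNA. Part of the spread between arrays may therefore be technical. The p-values of log2 ratios below use a spread pooled over the groups, which includes the gap between EBC-1 and SK-MES-1 and the differences between the siRNAs. All values are log2 ratios of red over green, averaged over the counted probes of a gene, and values below 0 therefore mean less signal from the treated cells. In cell populations, fewer cells that express a gene and less RNA per cell cannot be told apart.

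Condensins are ring-shaped ATPase complexes that fold chromatin into loops and shape compact chromosomes for mitosis. The coiled-coil ATPases SMC2 and SMC4 are closed by a kleisin subunit, to which a pair of HEAT-repeat subunits binds. Condensin II stays in the nucleus and acts from early prophase, whereas condensin I reaches the chromosomes after the nuclear envelope breaks down. Their expression is high in proliferating cells, and several of the genes rise toward mitosis.

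The targeted genes were lower on the arrays of their own groups. DONSON had a mean log2 ratio of -2.02 in siDONSON (adjusted p = 0.00168 by limma) and LOXL2 a mean of -2.58 in LOXL2 edited cells (adjusted p = 0.00126 by limma). Against the lineage markers, EBC-1 had 1 of 6 squamous markers (SOX2) above background in its control channel, with TP63, KRT5, KRT6A, KRT14 and DSG3 not well above it. SK-MES-1 had 3 of 6 (TP63, KRT14 and SOX2). SBC-3 had 3 of 5 neuroendocrine markers (NEUROD1, CHGA and SYP) and not INSM1 and NCAM1. A549 had 3 of 5 adenocarcinoma markers (NAPSA, KRT7 and MUC1), and not NKX2-1 and SFTPB. The lists did not set the lines apart as their labels would. NAPSA, KRT7 and MUC1 were also above background in EBC-1 and SK-MES-1, and the summed level of the adenocarcinoma list, in multiples of the 75th percentile of an array, was 796 in EBC-1, 715 to 776 in A549, 313 in SK-MES-1 and 6.59 to 7.44 in SBC-3. The summed squamous level was 80.3 to 81.4 in SBC-3, where TP63 and SOX2 were above background, compared with 2.91 to 3.04 in A549, 1.2 in EBC-1 and, with SK-MES-1, 0.829. CHGA was also above background in A549 and NCAM1 in SK-MES-1, and the summed neuroendocrine level was 2.87 to 3.00 in SBC-3, 1.42 to 1.51 in A549, 0.393 in SK-MES-1 and 0.299 in EBC-1. Of 4 markers of other cells, PTPRC was above background in every line, COL1A2 only in SBC-3, and DCN and PECAM1 in none. The SD of log2 ratios over all genes was 0.70 in EBC-1 and 0.43 to 0.58 on the other 7 arrays.

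The promoter windows of the genes are shown because most members lay below 0 together in EBC-1, while NCAPH did not. Those printed were picked by these values. RefSeq windows (GRCh38.p14, 250 bases before to 50 bases after a start) were found for 7 of the 8 genes, with 10 windows in all. The window of NCAPG, below 0 in EBC-1, that of SMC4, below 0 on all arrays, and that of NCAPH, the member above 0 on the transfected arrays, follow 5′ to 3′, each on the + strand. Capitals mark the CCAAT box (CCAAT), the CHR element (TTTGAA or TTCGAA) and E2F cores (TTCCCGC, or the forms TTGGCGC and also TTCGCGC), searched on both strands, none of which overlapped here.
NCAPG (chr4:17810729-17811028): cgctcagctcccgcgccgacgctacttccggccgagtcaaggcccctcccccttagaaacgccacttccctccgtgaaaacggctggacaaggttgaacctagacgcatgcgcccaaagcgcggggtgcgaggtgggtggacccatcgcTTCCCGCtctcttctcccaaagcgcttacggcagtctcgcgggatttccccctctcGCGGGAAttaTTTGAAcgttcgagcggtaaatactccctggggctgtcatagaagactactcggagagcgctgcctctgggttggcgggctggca
SMC4 (chr3:160399400-160399699): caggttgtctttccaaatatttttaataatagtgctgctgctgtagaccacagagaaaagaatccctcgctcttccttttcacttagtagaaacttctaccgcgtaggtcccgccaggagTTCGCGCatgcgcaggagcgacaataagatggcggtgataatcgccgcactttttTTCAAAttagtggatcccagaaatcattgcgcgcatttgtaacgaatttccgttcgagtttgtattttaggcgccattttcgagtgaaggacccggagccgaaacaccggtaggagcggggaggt
NCAPH (chr2:96335516-96335815): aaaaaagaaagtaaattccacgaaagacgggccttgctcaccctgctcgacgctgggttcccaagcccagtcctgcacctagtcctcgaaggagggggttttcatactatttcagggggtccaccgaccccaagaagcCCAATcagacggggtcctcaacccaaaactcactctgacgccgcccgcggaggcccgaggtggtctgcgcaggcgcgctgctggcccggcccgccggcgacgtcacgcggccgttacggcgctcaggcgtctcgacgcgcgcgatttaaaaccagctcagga

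NCAPG held a CHR element that began 35 bases before its start and E2F cores that began 45 and 101 bases before it. SMC4 held a CHR element and an E2F core at 75 and 130 bases before the start shown, which is 1 of 2 starts listed for the gene. The window of the other SMC4 start held none of these motifs. NCAPH held a CCAAT box at 112 bases and neither of the other motifs. The CHR letters were in 6 of the 10 member windows, against 16.4% of all 35116 windows of this length. E2F cores were in 3 of 10 windows, against 11% of all, and the CCAAT box in 3 of 10, against 34.6%. The CHR letters were those of SMC2, SMC4, NCAPD2, NCAPG, NCAPD3 and NCAPG2. E2F cores were in SMC4, NCAPG and NCAPD3, and CCAAT boxes in NCAPD2, NCAPH and NCAPD3. NCAPD2 and NCAPD3 thus shared the CCAAT box with NCAPH but lay below 0 in EBC-1 (-1.14 and -0.93). The matches describe letters only, and no binding was measured.

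In EBC-1, miR-150-3p-transfected cells had lower signal than control cells for every condensin gene but NCAPH, and in SK-MES-1 the same genes lay between -0.24 and 0.09, except NCAPH2 at -0.46. The median of the 8 genes was -1.31 in EBC-1, where the median of all genes was 0.05, and -0.18 in SK-MES-1, where it was 0.02. With NCAPG and NCAPH, which were not well above background in 1 channel of the EBC-1 array, set to their bounds (given with these genes), the EBC-1 median was -1.23. In EBC-1, 5 of the 8 genes (SMC2, SMC4, NCAPD2, NCAPG and NCAPG2) had a log2 ratio below -1, compared with 6.04% of all genes on that array. In SK-MES-1, 0 of 8 did, compared with 1.27% of all genes. The software's error for a log2 ratio gives 95% technical limits within an array, and 7 of 8 members lay below 0 outside these limits in EBC-1, compared with 17.9% of all genes. In SK-MES-1, 1 of 8 (NCAPH2) did so, compared with 7.47% of all genes. With another background correction (normexp with an offset of 50, followed by loess), which shrinks the ratios of dim probes, the condensin median in EBC-1 was -0.62 and 1 of 8 genes (NCAPD2) had a log2 ratio below -1, compared with 1.75% of all genes.

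**Figure D1:**
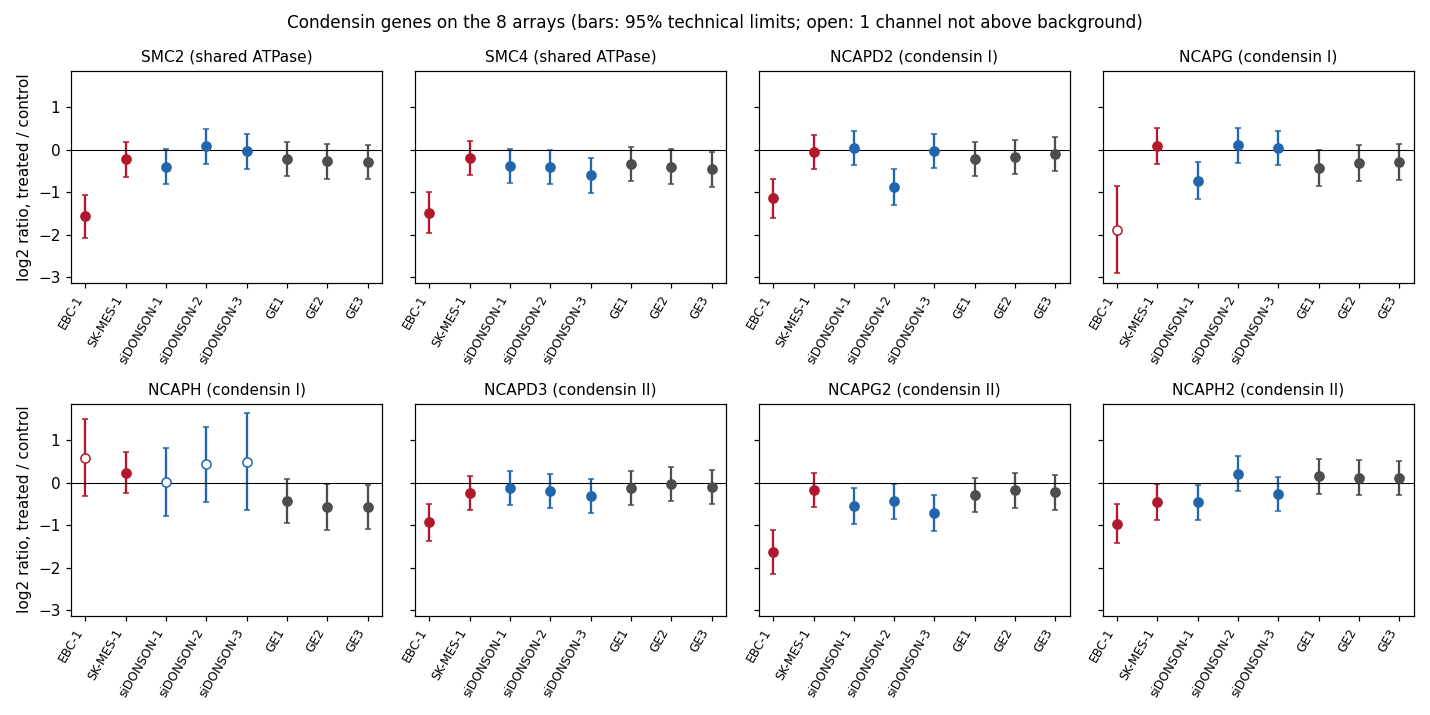
Log2 ratio (treated over control, y axis) of each condensin gene on the 8 arrays (x axis), in red for miR-150-3p, blue for siDONSON and grey for LOXL2 edited cells, with 95% technical limits as bars and open points where 1 channel was not well above background. EBC-1 is the lowest array for 7 genes, and NCAPH lies above 0 on the 5 transfected arrays and below 0 in GE1, GE2 and GE3. The bars of NCAPH cross 0 on every transfected array and in GE1.

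With both lines as samples of 1 treatment, limma called 0 of 8 condensin genes between miR-150-3p and control cells, compared with 5.38% of 14229 genes. At an unadjusted p under 0.05, 6 of the 8 passed, compared with 30% of all genes. SMC2, SMC4, NCAPD3, NCAPG2 and NCAPH2 were lower and NCAPH, with its dim probe, was higher (mean 0.42). The adjusted p-values by limma ran from 0.0595 for NCAPH2 to 0.202 for NCAPD2, and the 7 means below 0 ran from -0.59 to -0.90. The lines lay far apart: without SK-MES-1, that is on the EBC-1 array alone, 7 of 8 genes were called, compared with 20.1% of all genes, and without EBC-1 the count was 0, compared with 0.00618% (1 of 16176 genes). These fits of a lone array take its spread from the other groups. EBC-1 was below SK-MES-1 outside the technical limits for 6 of 8 genes, compared with 9.49% of all genes, and not for NCAPH and NCAPH2.

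The shared ATPases SMC2 and SMC4 had nearly the same values in EBC-1, in SK-MES-1 and with siDONSON-1, and parted with siDONSON-2 and siDONSON-3. The log2 ratio of SMC2 was -1.57 in EBC-1, -0.22 in SK-MES-1, -0.39, 0.09 and -0.03 with siDONSON-1, siDONSON-2 and siDONSON-3, and -0.21, -0.27 and -0.28 in GE1, GE2 and GE3. EBC-1 stood alone, at 33.7% of the control signal, and the siDONSON arrays lay on both sides of 0. The log2 ratio of SMC4 was -1.48 in EBC-1, -0.19 in SK-MES-1, -0.37, -0.40 and -0.60 with the 3 siRNAs, and -0.33, -0.39 and -0.46 in GE1, GE2 and GE3. SMC4 was thus below 0 on every array, as were NCAPG2 and NCAPD3, which makes 3 of 8 members, compared with 4.85% of the 12862 genes measured on all 8 arrays. For SMC2, the group means were -0.90 (SE 0.27) for miR-150-3p, -0.11 (SE 0.22) for siDONSON and -0.25 (SE 0.22) for LOXL2 edited cells, with adjusted p-values by limma of 0.0841, 0.792 and 0.490. For SMC4, they were -0.84 (SE 0.25), -0.46 (SE 0.21) and -0.39 (SE 0.21), with adjusted p-values by limma of 0.0832, 0.210 and 0.244. SMC2 minus SMC4 was -0.09 in EBC-1, -0.03 on the SK-MES-1 array and -0.02 with siDONSON-1, but 0.49 with siDONSON-2 and 0.57 with siDONSON-3.

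The D subunits, the HEAT-repeat proteins NCAPD2 of condensin I and NCAPD3 of condensin II, had bright probes. The log2 ratio of NCAPD2 was -1.14 in EBC-1, -0.05 in SK-MES-1, 0.04, -0.87 and -0.02 with siDONSON-1, siDONSON-2 and siDONSON-3, and -0.22, -0.17 and -0.09 in GE1, GE2 and GE3. Among the siRNAs, siDONSON-2 stood apart at 54.6% of the control signal, and its 2 probes gave -0.78 and -0.97. NCAPD3 had -0.93 in EBC-1, -0.24 in SK-MES-1, -0.12, -0.20 and -0.32 with the siRNAs, and -0.13, -0.02 and -0.10 in the edited cells. No array of NCAPD3 was above 0, though its mean in LOXL2 edited cells was 0.0084 with normexp, and only EBC-1 was outside its technical limits. The group means of NCAPD2 were -0.59 (SE 0.28), -0.29 (SE 0.23) and -0.16 (SE 0.23) for miR-150-3p, siDONSON and LOXL2 edited cells, with adjusted p-values by limma of 0.202, 0.474 and 0.691. Those of NCAPD3 were -0.59 (SE 0.16), -0.21 (SE 0.13) and -0.08 (SE 0.13), with adjusted p-values by limma of 0.0687, 0.341 and 0.712.

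The G subunits, the second pair of HEAT-repeat proteins, were both below -1 in EBC-1. NCAPG of condensin I had a log2 ratio of -1.88 in EBC-1, 0.09 in SK-MES-1, -0.72, 0.11 and 0.05 with siDONSON-1, siDONSON-2 and siDONSON-3, and -0.43, -0.31 and -0.28 in GE1, GE2 and GE3. Its red signal in EBC-1 was not well above background, so that the measured ratio there is a bound of at least 2.48-fold lower, computed against the lowest signal well above background on that array. The bound, -1.31 on the log2 scale, does not place NCAPG below SMC2, SMC4 or NCAPG2 on that array, and with normexp the value was -0.14. The siRNAs split, with siDONSON-1 outside its technical limits and siDONSON-2 and siDONSON-3 near 0. NCAPG2 of condensin II had -1.63 in EBC-1, -0.17 in SK-MES-1, -0.55, -0.44 and -0.72 with the siRNAs, and -0.28, -0.18 and -0.23 in the edited cells. NCAPG2 was the only member outside its technical limits with all 3 siRNAs, at 73.7% of the control signal or less. The group means of NCAPG2 were -0.90 (SE 0.28), -0.57 (SE 0.23) and -0.23 (SE 0.23) for miR-150-3p, siDONSON and LOXL2 edited cells, with adjusted p-values by limma of 0.0886, 0.167 and 0.544. Those of NCAPG were -0.89 (SE 0.40), -0.19 (SE 0.33) and -0.34 (SE 0.33), with adjusted p-values by limma of 0.178, 0.751 and 0.533.

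Of the kleisins, which close the ring, NCAPH had a pattern unlike that of the other members. NCAPH of condensin I had a log2 ratio of 0.59 in EBC-1, 0.24 in SK-MES-1, 0.02, 0.43 and 0.49 with siDONSON-1, siDONSON-2 and siDONSON-3, and -0.43, -0.57 and -0.58 in GE1, GE2 and GE3. On every transfected array its 95% technical limits took in 0, such as -0.31 to 1.49 in EBC-1 and -0.79 to 0.83 with siDONSON-1. GE1 was also within them, and GE2 and GE3 lay below 0 outside them. NCAPH was the dimmest member, measured by 1 probe, and its control signal was not well above background in EBC-1 and on all 3 SBC-3 arrays. At its bound, with green set to the lowest signal well above background, red over green was 1.26-fold in EBC-1 and 1.05-fold in SBC-3. The SBC-3 value is a mean over arrays, and siDONSON-1 itself measured 0.02 on the log2 scale. These bounds carry no error term and the technical limits took in 0, so that a rise was not established. With LOXL2 edited, where both channels were well above background, NCAPH fell by 0.53 on the log2 scale (SE 0.12, n = 3 arrays, adjusted p = 0.0277 by limma). With normexp it was still called, at -0.13. In the other groups its means were 0.42 (SE 0.15) for miR-150-3p and 0.31 (SE 0.12) for siDONSON, with adjusted p-values by limma of 0.112 and 0.150.

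NCAPH2 of condensin II had a log2 ratio of -0.96 in EBC-1, -0.46 in SK-MES-1, -0.46, 0.22 and -0.27 with siDONSON-1, siDONSON-2 and siDONSON-3, and 0.15, 0.12 and 0.11 in GE1, GE2 and GE3. The edited cells all lay above 0 and the miR-150-3p cells below it, and the siRNAs lay on both sides. Its means were -0.71 (SE 0.18), -0.17 (SE 0.15) and 0.13 (SE 0.15) for miR-150-3p, siDONSON and LOXL2 edited cells, with adjusted p-values by limma of 0.0595, 0.496 and 0.609. The 3 probes did not give the same picture. The probe A_33_P3272553, which names transcript NM_014551 and had green signals of 226 to 313, gave -1.44 in EBC-1, -1.22 in SK-MES-1 and -1.01 with siDONSON-1. The probes A_33_P3249439 and A_33_P3272558, which name transcript NM_001185011 and had green signals of 5260 to 13681, gave -0.72 and -0.74 with EBC-1, and with SK-MES-1 -0.11 and -0.05. On the SK-MES-1 array, the low mean of the gene thus came from A_33_P3272553, as it did with siDONSON-1, where the others had -0.22 and -0.16. Where on the transcripts these probes lie was not analysed here.

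**Figure D2:**
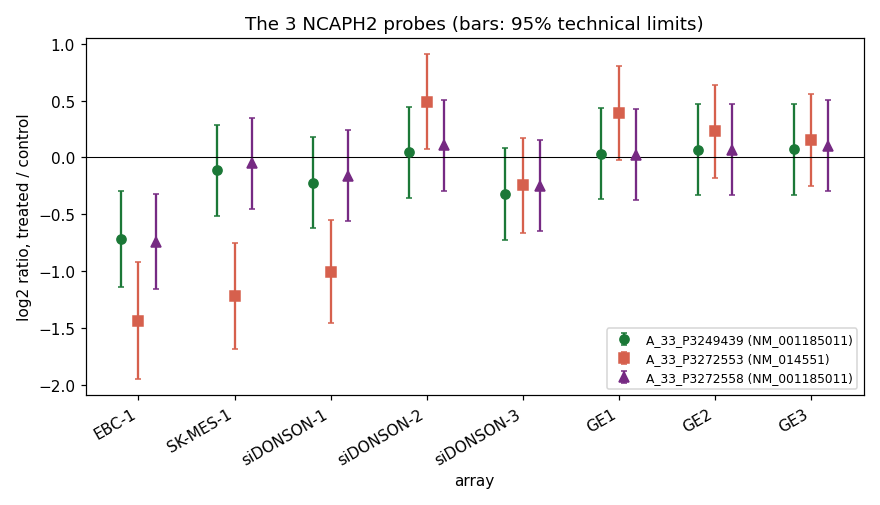
Log2 ratio (treated over control, y axis) of the 3 NCAPH2 probes on the 8 arrays (x axis), with 95% technical limits as bars. The probe A_33_P3272553 lies below the other probes in EBC-1, SK-MES-1 and with siDONSON-1 (-1.44, -1.22 and -1.01). It lies above them with siDONSON-2 and in GE1, GE2 and GE3, and close to them with siDONSON-3 (-0.24, against -0.32 and -0.25).

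With the siRNAs against DONSON, condensin medians lay below 0, and the siRNAs differed in which genes were lowest. The median of the 8 genes was -0.38 with siDONSON-1, -0.05 with siDONSON-2 and -0.15 with siDONSON-3, and the median of all genes was 0.03 to 0.05. Below 0 outside the technical limits were 3 of 8 genes with siDONSON-1 (NCAPG, NCAPG2 and NCAPH2), compared with 9.93% of all genes. With siDONSON-2 they were 2 of 8 (NCAPD2 and NCAPG2), compared with 10.9%, and with siDONSON-3 also 2 of 8 (SMC4 and NCAPG2), compared with 9.98%. Over the 3 siRNAs, limma called 0 of 8 condensin genes against control, compared with 7.22% of 14453 genes. At an unadjusted p under 0.05 there were 2 of 8 (NCAPH, higher, and NCAPG2, lower), compared with 26.1% of all genes. The red channels of these arrays differed more from each other (SD of log2 differences 0.37 to 0.51 over 19931 probes) than the green channels (0.18 to 0.19).

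In LOXL2 edited A549 cells, 7 of 8 condensin genes had a mean below 0 and NCAPH alone was called. On each of these arrays, 46.4% to 47.7% of all genes lay below 0. The cohesin, SMC5/6 and mitotic partner lists given below had 12 of 14, 7 of 8 and 12 of 14 means below 0, so that the direction was not particular to condensin. The median of the 8 genes was -0.25 in GE1, -0.23 in GE2 and -0.26 in GE3, and the arrays differed by at most 0.15 for any member. Limma called 1 of 8 genes (NCAPH, lower), compared with 14.4% of 15531 genes. Without GE1, GE2 or GE3 this count was 0, compared with 3.74%, 2.99% and 3.69% of all genes in these fits, and when limma estimated the spread within this group only it was 5, namely SMC2, SMC4, NCAPG, NCAPG2 and NCAPH, all lower, compared with 37.8% of all genes. Below 0 outside the technical limits were 1 of 8 genes in GE1 (NCAPG), compared with 9.92% of all genes, 1 of 8 in GE2 (NCAPH), compared with 9.24%, and 2 of 8 in GE3 (SMC4 and NCAPH), compared with 8.88%.

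The groups were then compared with each other. Between miR-150-3p and siDONSON, limma called 0 of 8 condensin genes, compared with 2.69% of 13027 genes, and 1 of 8 (NCAPH2) had an unadjusted p under 0.05, compared with 23% of all genes. Between miR-150-3p and LOXL2 edited cells, 1 of 8 was called (NCAPH), compared with 3.6% of 13777 genes. The difference for NCAPH was 0.94 (SE 0.19, adjusted p = 0.0411 by limma), from means of 0.42 and -0.53. Between siDONSON and LOXL2 edited cells, 1 of 8 was called (NCAPH), compared with 7.29% of 13655 genes. The difference for NCAPH was 0.84 (SE 0.17, adjusted p = 0.0273 by limma), from means of 0.31 and -0.53. Both calls rest on the dim probe of NCAPH: when both channels had to be well above background, NCAPH could not be tested in EBC-1 or SBC-3, and with normexp the differences were 0.16 and 0.16 and were not called. Both were also lost without any 1 of GE1, GE2 and GE3, the first without EBC-1 and the second without siDONSON-2 or siDONSON-3. NCAPH2 differed by -0.84 (SE 0.23) between miR-150-3p and LOXL2 edited cells, with an adjusted p by limma of 0.0882. By its brightest probe alone, the difference was -0.46 (adjusted p = 0.255 by limma).

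Condensin I and condensin II were set side by side by the means of their own subunits, as a description. The mean of NCAPD2, NCAPG and NCAPH minus the mean of NCAPD3, NCAPG2 and NCAPH2 was 0.37 in EBC-1, 0.39 in SK-MES-1, 0.15, 0.03 and 0.61 with siDONSON-1, siDONSON-2 and siDONSON-3, and -0.27, -0.32 and -0.24 in GE1, GE2 and GE3. It was above 0 on the transfected arrays and below 0 on the edited arrays, the pattern of NCAPH. With NCAPH left out, it was -0.33 in EBC-1, 0.31 in SK-MES-1, 0.03, -0.24 and 0.45 with the siRNAs, and -0.24, -0.21 and -0.11 in the edited cells. With NCAPG at its bound, the EBC-1 value without NCAPH was -0.05. The sign in EBC-1 and with siDONSON-2 thus turned with the dim probe of NCAPH. Among the matched subunits, NCAPD2 minus NCAPD3 ranged from -0.68 (siDONSON-2) to 0.29 (siDONSON-3), and NCAPG minus NCAPG2 from -0.17 (siDONSON-1) to 0.76 (siDONSON-3) outside EBC-1. In EBC-1, NCAPG minus NCAPG2 was -0.25 as measured and 0.32 with NCAPG at its bound, so that its sign was not established there. NCAPH minus NCAPH2 had the widest range, from -0.70 in GE2 to 1.56 in EBC-1 (1.30 with NCAPH at its bound).

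**Figure D3:**
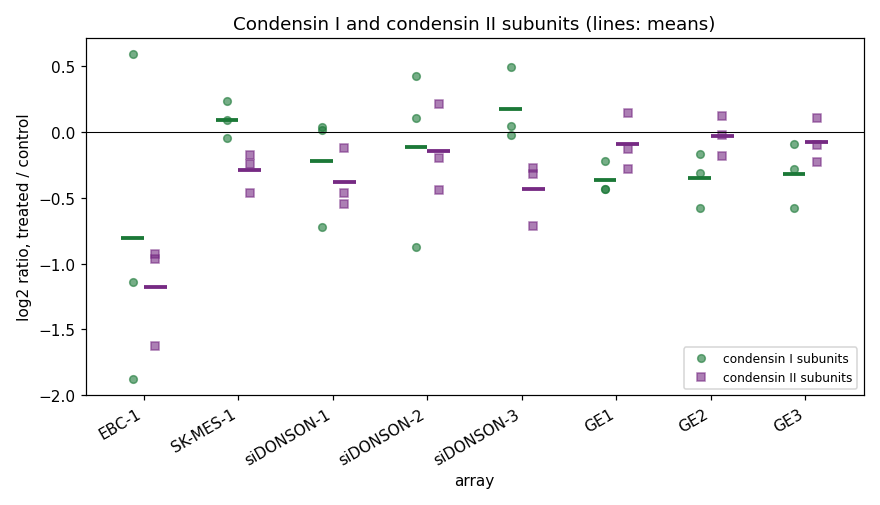
Log2 ratio (treated over control, y axis) of the 3 condensin I subunits (green circles) and the 3 condensin II subunits (purple squares) on each array (x axis), with their means as lines. The condensin I mean is above the condensin II mean on the 5 transfected arrays (by 0.03 to 0.61) and below it in GE1, GE2 and GE3.

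The control channel gave the level of each gene before treatment, as log2 of the green signal over the 75th percentile of its array. Levels are compared here only within a gene, between the lines. SMC2 and SMC4 were highest in A549, at 1.75 ± 0.03 and 4.14 ± 0.03 (SD, n = 3 arrays), and lowest in SK-MES-1, at 0.00 and 2.78 (1 array). SMC2 in EBC-1 (0.66) lay within the range of SBC-3 (0.58 to 0.75), but only as a mean of 2 probes that disagreed. By A_33_P3357322, EBC-1 was below SBC-3 (0.71, against 1.05 to 1.18). By A_33_P3378334, EBC-1 was above it (0.60, against 0.11 to 0.40), so that the order of these lines was not established. SMC4 was 3.61 ± 0.04 (SD, n = 3) in SBC-3 and 2.97 in EBC-1.

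NCAPD2 was highest in EBC-1, at 5.86, followed by A549 (5.12 ± 0.01, SD, n = 3), SK-MES-1 (4.72) and SBC-3 (4.08 ± 0.03, SD, n = 3). NCAPG had another order, highest in SBC-3 (0.50 ± 0.10, SD, n = 3), then A549 (-0.31 ± 0.06, SD, n = 3), SK-MES-1 (-0.83) and EBC-1 (-1.71). NCAPH was well above background in A549 (-1.46 ± 0.05, SD, n = 3) and SK-MES-1 (-1.51), which lay close together, and not in EBC-1 and SBC-3. NCAPD3 was highest in EBC-1 (4.54), then SBC-3 (3.76 ± 0.04, SD, n = 3), A549 (2.89 ± 0.03, SD, n = 3) and SK-MES-1 (2.52). NCAPG2 spanned little, from 1.30 ± 0.01 (SD, n = 3) in A549 over EBC-1 (1.07) and SK-MES-1 (0.86) to 0.76 ± 0.01 (SD, n = 3) in SBC-3. NCAPH2 was highest in SK-MES-1 (4.14), then EBC-1 (3.72), SBC-3 (3.40 ± 0.02, SD, n = 3) and A549 (3.27 ± 0.04, SD, n = 3). EBC-1, the line with the lowest log2 ratios, thus had the highest control level of NCAPD2 and NCAPD3 and the lowest of NCAPG.

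Between SBC-3 and A549, the lines with 3 arrays each, 7 of the 7 condensin genes that could be tested differed by limma, compared with 87.3% of 12056 genes. SBC-3 was lower for SMC2 by a difference of -1.09 (adjusted p = 9e-07 by limma), for NCAPD2 by -1.04, for NCAPG2 by -0.54 and for SMC4 by -0.53. SBC-3 was higher for NCAPD3 by 0.87 and for NCAPG by 0.81. These sizes depended on the processing, with no change of sign: SMC4 was -0.28 with quantile normalization, -0.27 by its brightest probe and -0.80 with normexp, and with normexp NCAPG2 was -0.35, NCAPD3 0.44 and NCAPG 0.33. The difference of NCAPH2 was 0.14 (SE 0.04, adjusted p = 0.0104 by limma), and its sign turned with the scaling: it was -0.06 when each array was scaled to its median, which also moved the median of all genes from -0.08 to -0.29, -0.11 with normexp and 0.34 with quantile normalization. NCAPH was at least 2.01-fold higher in A549 than in SBC-3, where it was not well above background. The arrays of a line may carry the same control RNA, and then the spread here is technical.

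**Figure D4:**
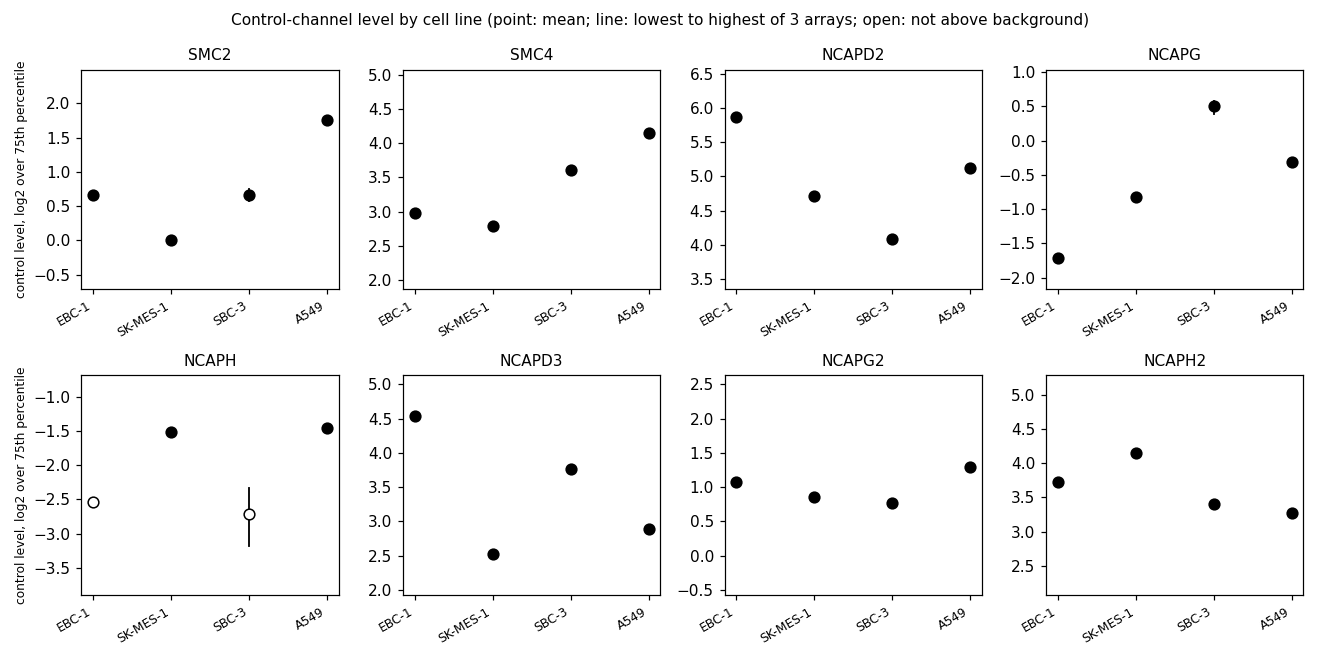
Control level (log2 of the green signal over the array's 75th percentile, y axis, each panel spanning the same number of log2 units) of the condensin genes in the 4 cell lines (x axis), with points for the mean, lines from the lowest to the highest array where there were 3, and open points where no array was well above background. The order of the lines differs between genes: NCAPG is highest in SBC-3 and SMC2 is highest in A549.

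Other genes of chromosome structure were counted for comparison. Against control, limma called 5.38%, 7.22% and 14.4% of all genes for miR-150-3p, siDONSON and LOXL2 edited cells. Of 14 cohesin genes, whose ring holds sister chromatids together, limma called 1 lower with miR-150-3p (STAG1, a HEAT-repeat subunit, -0.98, adjusted p = 0.0238). It called 2 lower with siDONSON, SMC1A, a cohesin ATPase (-0.87, adjusted p = 0.0190 by limma), and STAG1 (-0.79, adjusted p = 0.0164 by limma). With LOXL2 edited it called 0 of 14, with 6 at an unadjusted p under 0.05 (31% of all genes), and the largest means were those of PDS5B (-0.50) and SMC3 (-0.43). SMC6, an ATPase of the SMC5/6 complex, a repair relative of condensin, had -0.64 with LOXL2 edited (adjusted p = 0.0281 by limma). It was the 1 gene called there of 8 genes of this complex, compared with 14.4% of all genes. Limma called 0 of 7 with miR-150-3p, where SMC6 had -0.75 (adjusted p = 0.0526 by limma), and 0 of 8 with siDONSON. At an unadjusted p under 0.05 there were 3 and 0 (30% and 26.1% of all genes). By size, SLF1 followed SMC6 with miR-150-3p, with a mean of -0.56, and the largest means with siDONSON were those of NSMCE2 (-0.19) and SLF2 (0.17). The medians of the cohesin list were -0.28, -0.09 and -0.22 and those of the SMC5/6 list -0.26, -0.01 and -0.21 for miR-150-3p, siDONSON and LOXL2 edited cells. The condensin medians for the same comparisons were -0.77, -0.20 and -0.24, and the medians of all genes 0.04, 0.03 and 0.02.

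Of 14 measured partners of condensin in mitosis, among them the topoisomerase TOP2A, the chromosome periphery protein MKI67 and the kinase CDK1, limma called 0 of 14 against control in each group, with 12, 1 and 0 at an unadjusted p under 0.05 for miR-150-3p, siDONSON and LOXL2 edited cells. Of all genes, 5.38%, 7.22% and 14.4% were called, and 30%, 26.1% and 31% passed that unadjusted threshold. The median of the partners was -1.49 in EBC-1, with 11 of 14 below -1, and -0.15 in SK-MES-1, with 0 of 14. On these arrays the condensin medians were -1.31 and -0.18. The log2 ratio of CDK1 was -2.82 with EBC-1 and -0.56 with SK-MES-1, and its mean had an adjusted p of 0.0568 by limma. MKI67 had -2.03 and -0.33, with an adjusted p of 0.0977 by limma. The largest means were those of CCNA2 (-0.56) and CDK1 (-0.40) with siDONSON and of CCNA2 (-0.37) and INCENP (0.35) in LOXL2 edited cells. With siDONSON-1, -2 and -3 the partners' medians were 0.04, -0.39 and -0.08, against -0.38, -0.05 and -0.15 for the condensin genes, so that siDONSON-2 was the lowest array for the partners and siDONSON-1 for condensin. Between the groups, limma called 0 genes of the cohesin, SMC5/6 and partner lists, and at an unadjusted p under 0.05 there were 3, 2 and 1 between miR-150-3p and siDONSON, 2, 0 and 3 between miR-150-3p and LOXL2 edited cells, and 3, 1 and 1 between siDONSON and LOXL2 edited cells. Of all genes, 23%, 22% and 25.4% passed it in these comparisons. The largest of these differences was that of CDCA5, a cohesin regulator, at -1.99 between miR-150-3p and LOXL2 edited cells (adjusted p = 0.127 by limma). On the EBC-1 array CDCA5 stood at -3.53 (log2 ratio), while SK-MES-1 had -0.79, against -0.20, -0.16 and -0.15 on the LOXL2 edited arrays. The part of cell cycle position in the condensin values was not tested.

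**Figure D5:**
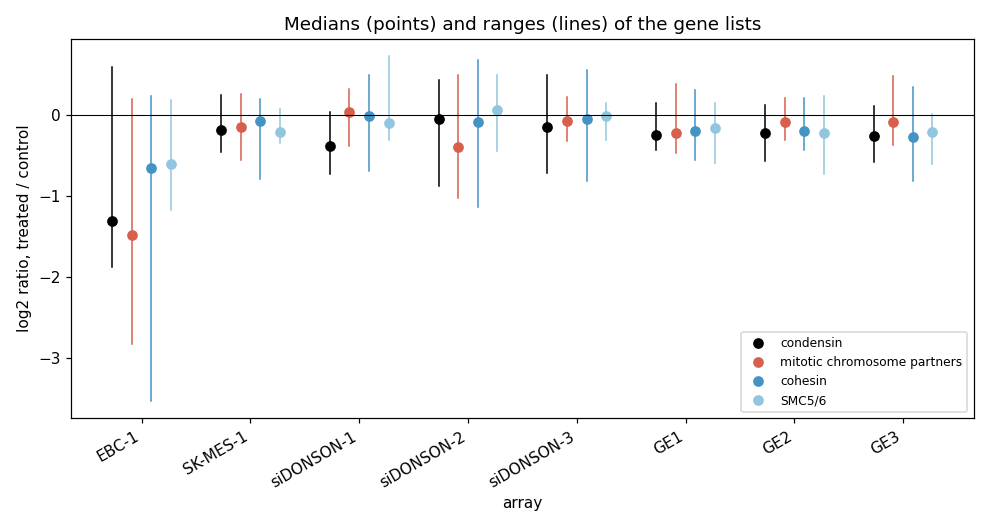
Median (points) and lowest to highest value (lines) of the log2 ratio (treated over control, y axis) of the condensin genes (black), their mitotic partners (red), cohesin (dark blue) and SMC5/6 (light blue) on each array (x axis). In EBC-1 the condensin and partner medians are -1.31 and -1.49 and the cohesin and SMC5/6 medians -0.66 and -0.60, and on the other arrays the medians lie between -0.39 and 0.05.

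The genes whose values over the 8 arrays lay nearest to the mean of the condensin genes were MCMBP, TROAP, DCLRE1A, NUP205, ANP32B, TIMM10, SNRPF, CKS1B, MSH5 and SNRPD1, out of 12862 genes with a value on every array. Nearness was the root mean square difference from that mean, which was 0.0794 for MCMBP, a partner of the replicative helicase, and 0.123 for SNRPD1. MCMBP had -1.04 in EBC-1, -0.29 in SK-MES-1, -0.20, -0.14 and -0.19 with the siRNAs, and -0.25, -0.21 and -0.27 in the edited cells, against condensin means of -1.13, -0.13, -0.32, -0.13, -0.18, -0.24, -0.23 and -0.24. The members themselves ranked from 45 (NCAPD3, 0.153) to 10062 (NCAPH, 0.728), with SMC2 at 132, SMC4 at 372, NCAPH2 at 792, NCAPG2 at 836, NCAPD2 at 903 and NCAPG at 1431. NCAPH thus differed from the condensin mean by more than most of these genes did. EBC-1 was the array on which that mean lay farthest from 0.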

How the data were processed

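RNA of 8 two-color arrays was compared, treated in Cy5 and control in Cy3, without a dye swap and on 1 slide, so that gene-specific dye bias remains in every ratio. The authors deposited Feature Extraction 12.1.1.1 output: intensities after background subtraction, detrending and dye normalization, unnormalized median intensities, and log10 ratios with their error. The deposited series table holds the same log10 ratios (largest difference 0), and its scale and direction follow from that match. The files' annotation build was hg19, and 31104 of 58201 probes matched a RefSeq gene (GRCh38.p14, names only).

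Control spots and 81 to 133 outlier spots per array were left out, and no spot was saturated (0). Spots were averaged per probe, and a probe was counted where at least 1 channel was well above background (27229 to 31785 probes per array). Precision is limited by the number of arrays. Log2 ratios were fitted with limma 3.58.1 in R 4.3.3, with 3 groups over 8 arrays and 5 residual degrees of freedom. Benjamini-Hochberg adjustment ran over all genes tested, with a threshold of 0.05. Technical limits are 95% limits from the deposited log10 error. Levels are log2 of the processed green intensity over its 75th percentile. The script was tested on simulated data. Normexp (offset 50) used median intensities in place of the planned means, followed by loess for ratios.

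Named genes were the 8 members, DONSON and LOXL2, up to 4 called genes (or the largest 2) per list and comparison, of which the text gives those against control and the largest difference between groups, and the 10 nearest genes. The members and lists were chosen with earlier results of these data known. One listed mitotic partner was not analysed here. A neuroendocrine marker of the planned list is not reported here.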

Additional observations from a re-analysis of the deposited data

Results flagged for a closer look

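NCAPH had opposite signs in the groups as measured, though with normexp and loess its means were near 0 for miR-150-3p (0.033) and siDONSON (0.026). The difference between miR-150-3p and LOXL2 edited cells was 0.94 (adjusted p = 0.0411 by limma), with 2 of 2 arrays above 0 and 3 of 3 below 0, and was marked because this test of the difference passed its threshold. The difference between siDONSON and LOXL2 edited cells was 0.84 (adjusted p = 0.0273 by limma), with 3 of 3 arrays above 0 and 3 of 3 below 0, for the same reason. Its control signal was not well above background on 4 of these 8 arrays (EBC-1 and SBC-3).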

How the results depend on the processing

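For the condensin genes called against control, the count with miR-150-3p (0) was 1 (NCAPH2) with normexp and loess and also 1 (NCAPH2) with probes above background in both channels, compared with 10.8% and 8.74% of all genes. It was 0 to 7 without 1 array. The count with LOXL2 edited (1) was 5 with the spread of the group alone, compared with 37.8% of all genes, and 0 without any 1 array. When the mean of the other groups' arrays was subtracted, the counts were 1 (NCAPH) with siDONSON, where the main count was 0, and 2 (NCAPH and NCAPH2) with LOXL2 edited, compared with 19.7% and 19.2% of all genes. Under that subtraction, which takes in the low EBC-1 values, siDONSON values turned to 0.40 (SMC2), 0.11 (SMC4), 0.048 (NCAPD2), 0.37 (NCAPG), 0.074 (NCAPD3) and 0.037 (NCAPH2). LOXL2 edited values turned to 0.17 (SMC2), 0.22 (SMC4), 0.25 (NCAPD2), 0.13 (NCAPG), 0.28 (NCAPD3) and 0.47 (NCAPG2). With normexp and loess, NCAPD3 in LOXL2 edited cells was 0.0084.

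The call of NCAPH between miR-150-3p and LOXL2 edited cells was lost (0 genes called) with normexp and loess, without a filter on dim probes and with both channels above background. Of all genes, 7.32%, 1.64% and 5.28% were called there. Without GE1, GE2 or GE3 the count was also 0, compared with 0.419%, 0.145% and 0.645% of all genes. With 1 miR-150-3p array left, the NCAPH difference was 0.77 without EBC-1 and 1.12 without SK-MES-1. The call between siDONSON and LOXL2 edited cells was lost (0) with normexp and loess and with both channels above background, compared with 11.7% and 9.03% of all genes. Without 1 array the count was 0 to 1. Without siDONSON-2, siDONSON-3, GE1, GE2 or GE3 it was 0, compared with 8.74%, 3.54%, 1.74%, 1.13% and 1.52% of all genes. In the fit with the replicate block, the numbers of siDONSON and LOXL2 edited arrays taken as pairs, the count was 0 of 8. With the block 389 genes were called, compared with 1347 on the same arrays without it and 995 in the main fit of all 8 arrays. The shared numbers did not pair the arrays (correlations of deviations -0.02, -0.01 and -0.01). Between miR-150-3p and siDONSON, the count was 0 to 5 without 1 array (5 without SK-MES-1, compared with 14.7% of all genes).

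Leaving out 1 array reversed NCAPG with miR-150-3p (range -1.88 to 0.089), SMC2 (-0.21 to 0.029), NCAPG (-0.34 to 0.076) and NCAPD2 (-0.45 to 0.0077) with siDONSON, NCAPH between miR-150-3p and siDONSON (-0.075 to 0.28), and SMC2 between miR-150-3p and LOXL2 edited cells (-1.31 to 0.029). The control level of NCAPH2 in SBC-3 minus A549 was -0.065 with median scaling and -0.11 with normexp. Condensin I minus condensin II moved to 0.22 in miR-150-3p both with the brightest probe and with normexp and loess, and to -0.13 in LOXL2 edited cells with normexp and loess. The causes of these changes were not tested. Of 465 single-gene values under an alternative, 409 kept direction and call, 16 lost and 18 gained a call, and 22 turned. Over all genes, 765 were called with miR-150-3p, and 0 to 2972 under the alternatives. After median centring 563 of 852 were lower, compared with 413 of 765. Signal over background limited NCAPH and, in EBC-1, NCAPG.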
